A study of Homo sapiens with 6 samples.

Results

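The enzymes described here make serine from glycolytic intermediates and pass its carbon into folate. The 10 genes are PHGDH, PSAT1, PSPH, SHMT1, SHMT2, MTHFD1, MTHFD1L, MTHFD2, ALDH1L1 and ALDH1L2. They were chosen by function, with their levels and their knockout to wildtype differences in these same libraries in view, and were taken by gene name from a count table of 60662 genes, where each name matched 1 row. Polyadenylated RNA was sequenced from TC-71, a long-established line of human Ewing sarcoma cells labelled as derived from bone, with 3 wildtype libraries and 3 libraries carrying XG knockout. XG encodes a cell-surface glycoprotein of the Xg blood group. All cells were grown untreated in Iscove's medium with fetal bovine serum. Values of the 10 genes in that comparison are therefore given as a description, without a p-value. Whether the knockout is a clone or a pool, and whether replicates are separate cultures, is not labelled, so p-values for other genes measure a spread that may be technical.

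Serine synthesis starts from 3-phosphoglycerate, which PHGDH oxidises, PSAT1 transaminates and PSPH dephosphorylates. The serine hydroxymethyltransferases SHMT1 (cytosol) and SHMT2 (mitochondria) then split serine into glycine and a methylene group carried by tetrahydrofolate. In mitochondria MTHFD2 and MTHFD1L turn that group into formate, in the cytosol the trifunctional MTHFD1 takes formate up for purine and thymidylate synthesis, and the 10-formyltetrahydrofolate dehydrogenases ALDH1L1 (cytosol) and ALDH1L2 (mitochondria) release it as carbon dioxide. Many of these genes are known targets of the transcription factor ATF4, and proliferating tumour cells often express the mitochondrial enzymes highly.

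Upstream sequences are shown for PSAT1 and MTHFD2, picked among genes with repeated CCAAT boxes after their values were seen. Both lay higher in all 3 knockout libraries than in any wildtype library, as did 10.7% of all genes tested. RefSeq promoter entries (GRCh38.p14) were matched for 7 of the 10 genes; PSPH, SHMT2 and ALDH1L2, the gene with the largest difference, had none in the table. The 250 bases before the start site of PSAT1 (chr9:78296875-78297124, plus strand) and MTHFD2 (chr2:74198365-74198614, plus strand) are given 5′ to 3′, with CCAAT in capitals.
PSAT1: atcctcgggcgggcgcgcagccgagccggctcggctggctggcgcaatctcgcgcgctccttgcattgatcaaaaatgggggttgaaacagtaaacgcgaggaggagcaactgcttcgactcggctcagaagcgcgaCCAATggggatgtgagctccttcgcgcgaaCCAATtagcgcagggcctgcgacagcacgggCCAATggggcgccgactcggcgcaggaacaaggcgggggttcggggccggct
MTHFD2: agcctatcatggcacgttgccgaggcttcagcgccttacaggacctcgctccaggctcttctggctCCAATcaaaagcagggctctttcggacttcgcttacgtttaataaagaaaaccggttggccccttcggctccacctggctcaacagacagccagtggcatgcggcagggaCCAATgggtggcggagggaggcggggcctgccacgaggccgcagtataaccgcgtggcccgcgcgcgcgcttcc
Searched on both strands, CCAAT was in 8 of the 11 windows (250 bases before to 50 after a start) of these genes and in 34.6% of all 35114 windows. Of those 8 windows, 3 overlap and hold the same single CCAAT of MTHFD1L, so the 8 are not separate sites. MTHFD1 and SHMT1 also held 2 matches each, and their log2 fold changes with the knockout were 0.011 and -0.051. A link between CCAAT boxes and the knockout difference was not tested. The motif TGATGNAA, the core of the composite element bound by ATF4 with C/EBP proteins, was in 3 of the 11 windows and in 3.62% of all windows. These 3 windows, the same as for CCAAT, hold 1 site, at alternative starts of MTHFD1L (chr6:150866347-150866375, plus strand), shown with the motif in capitals.
MTHFD1L: ccgccggctcTGATGCAAtcgcgccgggc
The match did not overlap a CCAAT box, and it is a match of letters, not a bound site.

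The libraries held 22557187 to 31214099 counted fragments, and 14425 genes passed the filter on low counts. XG stood at 45.4, 47.1 and 44.4 CPM (counts per 1e6 scaled library counts) in wildtype replicates 1, 2 and 3 and at 30.0, 30.0 and 28.9 CPM in the knockout, so the targeted transcript was lower in each knockout library but still present. In bulk RNA, fewer cells with a transcript and less of it per cell cannot be told apart. All 6 Ewing sarcoma markers examined were detected, from NKX2-2 at 18.0 ± 1.41 CPM to CCND1 at 1418 ± 9.09 CPM in wildtype (SD, n = 3), while PTPRC, CD3E, PECAM1 and EPCAM had 0 to 8 counts in any library. Knockout replicates 1 and 2 differed from wildtype with the GC content of a gene's transcript, and knockout replicate 3 did so less. Among 5550 tested genes under 45% GC the median log2 difference from the wildtype mean was 0.056, 0.052 and 0.0030 in knockout replicates 1, 2 and 3, and among 4033 genes over 55% GC it was -0.12, -0.10 and 0.0079.

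TC-71 cells transcribed 9 of the 10 enzymes. Per length of merged exons, the mitochondrial SHMT2, MTHFD2, MTHFD1L and ALDH1L2 stood above their cytosolic counterparts, which for MTHFD1L depended on the division by length. Levels between genes were compared as CPM per kilobase of merged exons. In wildtype cells PSAT1, the aminotransferase, stood at 165 ± 0.750 CPM per kilobase (SD, n = 3), above 98.63% of the genes tested. The serine-cleaving SHMT2 followed at 91.2 ± 1.07, the mitochondrial dehydrogenase MTHFD2 at 78.4 ± 0.993 and the dehydrogenase PHGDH at 62.5 ± 0.995 CPM per kilobase. The formate producer MTHFD1L (38.2), the phosphatase PSPH (30.4), the cytosolic MTHFD1 (22.6), ALDH1L2 (12.1) and SHMT1 (4.57) came next on the same scale. No neighbours in this order had overlapping wildtype libraries, and the knockout libraries gave the same order, also without overlap.

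The length assigned to a gene decides part of that order. Merged exons of all annotated transcripts came to 9217 bases for PHGDH, whose longest transcript has 3180 bases, and to 12208 against 6814 bases for MTHFD1. With the longest transcript as the length, an alternative chosen after seeing the data, PHGDH came first at 181 CPM per kilobase, ahead of PSAT1 at 166, SHMT2 at 123 and MTHFD2 at 84.9. The ranks of MTHFD1L (the fifth), ALDH1L2, SHMT1 and ALDH1L1 (the last 3) did not depend on this choice.

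**Figure D1:**
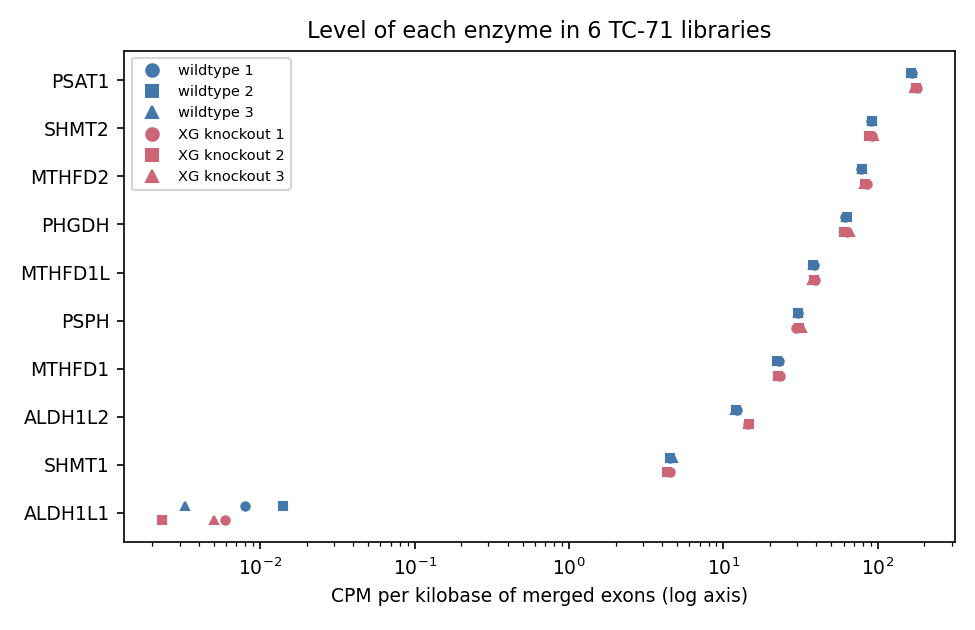
Level of each enzyme as CPM per kilobase of merged exons (log axis), with 1 point for each of 3 wildtype and 3 XG knockout libraries. PSAT1 is highest at 165 in wildtype, and ALDH1L1 lies far to the left of the other genes, with 1 to 5 fragments in a library.

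In each pair compared between the compartments the mitochondrial enzyme had the higher level per length. SHMT2 stood 19.9 ± 0.419 times as high as SHMT1 in wildtype and 20.6 ± 0.731 times in knockout libraries (ratio of CPM per kilobase, SD, n = 3). With the longest transcript as the length the wildtype ratio of SHMT2 to SHMT1 was 10.2. MTHFD1L stood 1.69 ± 0.0144 times as high as MTHFD1 in wildtype and 1.68 ± 0.0264 times in knockout libraries (SD, n = 3). Without division by length the MTHFD1L to MTHFD1 ratio was 0.695, so which of them is higher depends on the length, and with the longest transcript it was 1.31. In these 2 pairs the wildtype and knockout ranges of the ratio overlapped. MTHFD2, set against the dehydrogenase activity that MTHFD1 also carries, stood 3.36, 3.53 and 3.52 times as high in wildtype and 3.66, 3.67 and 3.56 times in knockout replicates 1, 2 and 3 (ratio of CPM per kilobase). All 3 knockout ratios of MTHFD2 to MTHFD1 lay above the wildtype ratios. MTHFD2 itself also lay wholly above wildtype, as did 10.7% of all genes tested. These ratios were not corrected for GC content, which is 41.40% for MTHFD2 and 47.56% for MTHFD1. Knockout replicate 3, the library with little GC trend, had the ratio nearest to wildtype. With the GC trend removed, the log2 differences of MTHFD2 from its wildtype mean were 0.056, 0.033 and 0.042 in knockout replicates 1, 2 and 3. Those of MTHFD1 were 0.014, -0.0125 and 0.0055. Whether GC content accounts for the difference in this ratio was not tested. Without division by length the wildtype ratio of MTHFD2 to MTHFD1 was 1.37.

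ALDH1L1, the cytosolic formyltetrahydrofolate dehydrogenase, was close to undetected. It had 3, 5 and 1 fragments in wildtype replicates 1, 2 and 3 and 2, 1 and 2 in the knockout, and it did not pass the filter on low counts. Summed over libraries, ALDH1L2 had 8769 fragments in wildtype and 11762 in knockout cells, against 9 and 5 for ALDH1L1. Per length this made ALDH1L2 1407 times as high in wildtype (95% exact binomial interval 741 to 3079) and 3398 times in the knockout (1456 to 10470). The intervals cover counting error only, and they overlap. The remaining paralog of the mitochondrial dehydrogenase, MTHFD2L, had 12.9 ± 0.721 CPM in wildtype against 12.8 ± 0.519 CPM with the knockout (SD, n = 3), and MTHFD2 stood 59.9 ± 4.04 times above it per length in wildtype.

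Fragments that map to several places were left out of the counts, which can lower genes with close copies. The table held 14 pseudogenes named after these enzymes. PSPHP1, an unprocessed copy of PSPH on chromosome 7, had 178 to 268 fragments in a library, while PSPH itself had 1883 to 2680, so the PSPH level is uncertain by what the copies share. The other pseudogenes of PSAT1, MTHFD2, MTHFD1 and SHMT1 had 0 to 5 fragments in any library. SHMT1 shared 1% of its exon bases with another gene on the same strand and the other enzymes shared none.

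With XG knockout, 1 of the 9 tested enzymes passed the threshold of an edgeR adjusted p under 0.05 in the fit across all genes, and it was higher. In that fit 1.36% of all genes tested passed, and 0.444% of all genes tested passed and were higher. ALDH1L2 (ENSG00000136010.14, chr12:105019784-105107643, minus strand, GRCh38) stood at 117, 115 and 113 CPM in wildtype replicates 1, 2 and 3 and at 137, 140 and 136 CPM in knockout replicates 1, 2 and 3. All 3 knockout libraries lay above all 3 wildtype libraries, and the gap between the groups was wider than the spread within either. ALDH1L2 rose to 119.5% of its wildtype level, or by 0.26 on the log2 scale (SE 0.0318, n = 3 per group). Its transcript has 42.11% GC, in the class that was higher in knockout replicates 1 and 2. With a GC correction, which removes from each library the smooth trend of counts with transcript GC content, the ALDH1L2 log2 fold change was 0.23 (SE 0.0275), and knockout replicate 3 alone, the library with little GC trend, gave 0.24 (SE 0.0375). Over 15 alternative fits of these same libraries its log2 fold change lay between 0.23 and 0.27.

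PSAT1 and MTHFD2 lay higher in all 3 knockout libraries by smaller amounts and did not pass the threshold. PSAT1 (ENSG00000135069.14, chr9:78297125-78330093, plus strand) was at 365, 362 and 365 CPM in wildtype and at 396, 389 and 377 CPM in knockout replicates 1, 2 and 3. The log2 fold change of PSAT1 was 0.089 (SE 0.0269). MTHFD2 (ENSG00000065911.12, chr2:74198610-74217565, plus strand) was at 373, 379 and 382 CPM in wildtype and at 407, 399 and 390 CPM in knockout replicates 1, 2 and 3, a log2 fold change of 0.077 (SE 0.0269). In both genes knockout replicate 1 was highest and knockout replicate 3 lay nearest to wildtype. With ALDH1L2, 3 of 9 tested enzymes had knockout libraries wholly above wildtype and 0 wholly below, against 10.7% and 9.8% of all genes tested (20.5% in either direction).

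These 3 enzymes have the lowest GC contents of the set, 42.11%, 42.28% and 41.40% for ALDH1L2, PSAT1 and MTHFD2, while the others range from 47.56% to 57.28%. With the GC correction the log2 fold change of PSAT1 was 0.059 (SE 0.022) and that of MTHFD2 0.044 (SE 0.0223), both smaller than without it. After this correction the log2 differences from the wildtype mean in knockout replicates 1, 2 and 3 were 0.073, 0.054 and 0.049 for PSAT1. They were 0.056, 0.033 and 0.042 for MTHFD2. The highest corrected wildtype values were 0.0022 and 0.013, so both genes still lay wholly above wildtype. In the GC-corrected fit 1 enzyme passed the threshold, ALDH1L2, where 2.35% of all genes passed and 1.09% were higher. Without knockout replicate 3 the values were 0.11 for PSAT1 and 0.093 for MTHFD2, and both then passed the threshold, so that 3 enzymes did, all higher, where 12.7% of all genes passed and 3.58% were higher. With knockout replicate 3 alone they were 0.051 and 0.045, and 1 enzyme passed, where 0.83% of all genes did and 0.472% were higher. That fit takes its spread from the wildtype libraries and assumes that the lone library varies like them. Whether GC content accounts for the differences of ALDH1L2, PSAT1 and MTHFD2 was not tested.

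The first and last enzymes of serine synthesis had no common direction among the knockout libraries. PHGDH (ENSG00000092621.12, chr1:119648411-119744226, plus strand) was at 567, 585 and 575 CPM in wildtype and at 582, 558 and 609 CPM in knockout replicates 1, 2 and 3. Knockout replicate 2 lay below all wildtype libraries and knockout replicate 3 above them, and the log2 fold change was 0.019 (SE 0.0302). PSPH (ENSG00000146733.14, chr7:56011051-56051604, minus strand) was at 83.8, 84.1 and 83.8 CPM in wildtype and at 81.6, 84.8 and 89.0 CPM in the knockout. The SD of PSPH was 0.193 CPM over the wildtype and 3.70 CPM over the knockout libraries (n = 3 each), which lay on both sides of wildtype, and the log2 fold change was 0.021 (SE 0.0381). Without knockout replicate 3 the log2 fold changes of PHGDH and PSPH were -0.014 and -0.011.

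The serine hydroxymethyltransferases overlapped between groups. SHMT1 (ENSG00000176974.20, chr17:18327860-18363563, minus strand) was at 32.79, 33.01 and 34.08 CPM in wildtype and at 32.98, 31.53 and 31.90 CPM in the knockout, a log2 fold change of -0.051 (SE 0.049). SHMT2 (ENSG00000182199.11, chr12:57229573-57234935, plus strand) was at 414, 423 and 419 CPM in wildtype and at 420, 400 and 431 CPM in the knockout, a log2 fold change of -0.0072 (SE 0.0293). SHMT2 has 56.97% GC, and its log2 fold change was 0.045 (SE 0.023) after the GC correction and 0.0025 with upper quartile scaling, so its sign is not settled by these libraries.

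**Figure D2:**
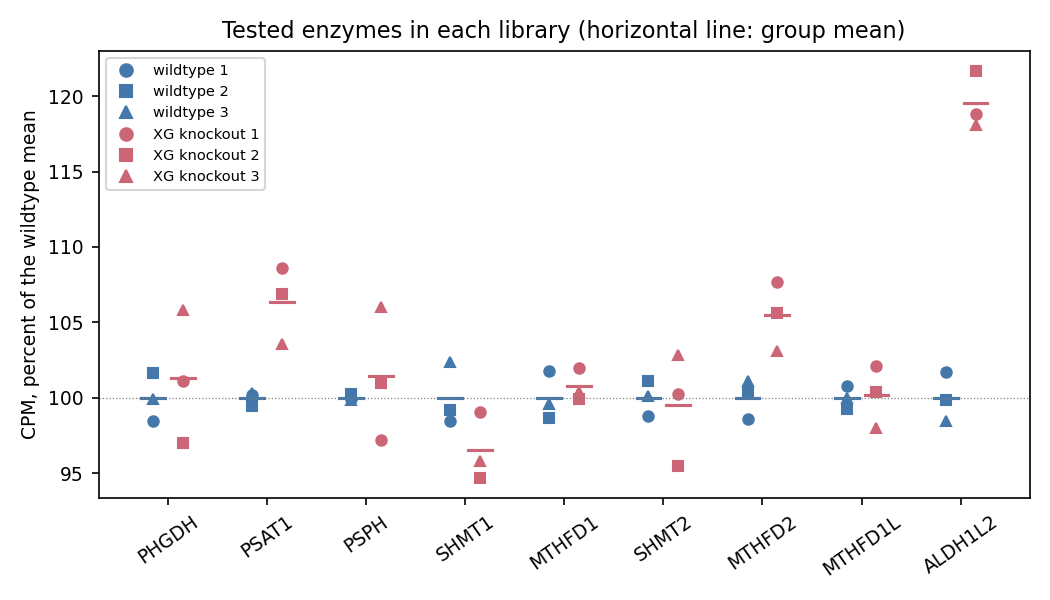
CPM of the 9 tested enzymes in each library as a percentage of the gene's wildtype mean, with short lines at group means. ALDH1L2 stands apart at 119.5% of wildtype, PSAT1 and MTHFD2 lie wholly above their wildtype libraries, and the knockout libraries of PHGDH, PSPH and SHMT2 fall on both sides of them.

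The tetrahydrofolate synthases were at nearly equal levels in both groups. MTHFD1 (ENSG00000100714.17, chr14:64388031-64463457, plus strand) was at 281, 272 and 275 CPM in wildtype and at 282, 276 and 277 CPM in knockout replicates 1, 2 and 3, a log2 fold change of 0.011 (SE 0.0273). MTHFD1L (ENSG00000120254.15, chr6:150865549-151101887, plus strand) was at 193, 191 and 192 CPM in wildtype and at 196, 193 and 188 CPM in the knockout. The MTHFD1L log2 fold change was 0.0022 (SE 0.0292), and it was -0.028 with knockout replicate 3 alone. The 3 mitochondrial enzymes that follow SHMT2 thus did not share a size of difference: ALDH1L2 at 0.26, MTHFD2 at 0.077 and MTHFD1L at 0.0022, on the log2 scale. The median log2 fold change was 0.019 over the 9 tested enzymes and 0.0019 over all genes tested.

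**Figure D3:**
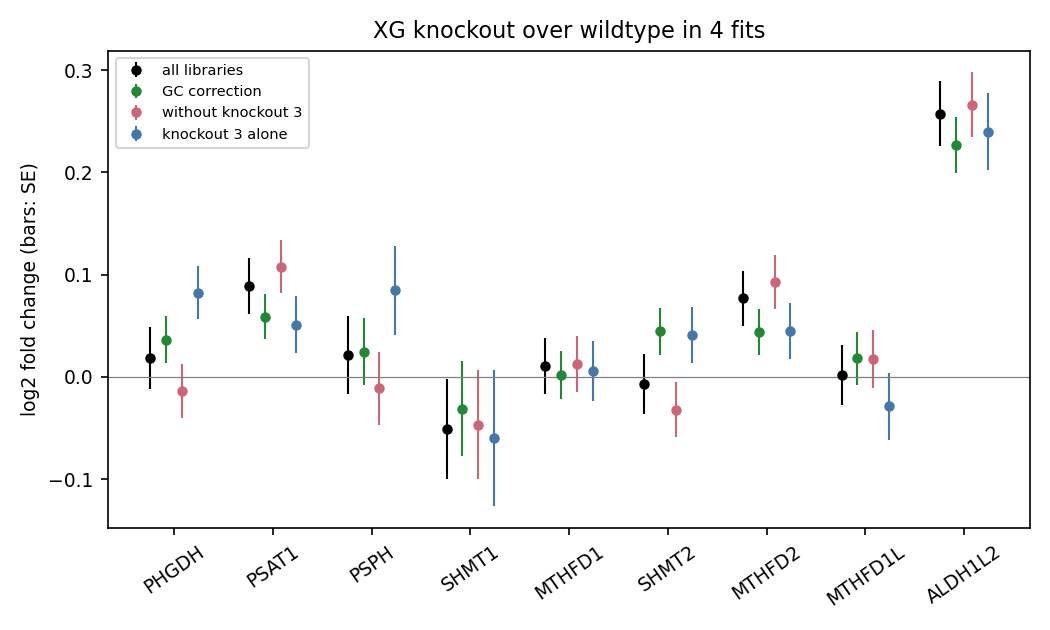
Log2 fold change of XG knockout over wildtype (bars are SE) for 9 enzymes in 4 fits. ALDH1L2 lies between 0.23 and 0.27 in these fits, PSAT1 and MTHFD2 are smaller after GC correction and with knockout replicate 3 alone, and SHMT2 lies on both sides of 0.

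In the authors' deposited table, whose stated columns do not give a direction, the sign matched knockout over wildtype for 99.16% of the genes tested here. It lists log2 fold changes of 0.26 for ALDH1L2 (SE 0.0399), 0.088 for PSAT1 and 0.075 for MTHFD2. Of these enzymes 1, ALDH1L2, has an adjusted p under 0.05 in the authors' deposited table, as do 2.66% of the genes with an adjusted p there.

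Genes around the pathway were read from 6 lists drawn up by function: other folate enzymes and transporters, glycine metabolism, serine and glycine transport, the methionine cycle and transsulfuration, purine synthesis, and regulators with their kinases. Of 66 genes 55 were tested, and 0 passed the threshold in edgeR, against 1.36% of all genes; 0 passed in DESeq2 and 0 in limma voom. At an unadjusted p under 0.05 there were 16 of the 55 in edgeR, and 2422 of 14425 over all genes. Positive log2 fold changes were seen in 35 of the 55, with a median of 0.023, beside 7341 of 14425 and 0.0019 over all genes tested. Without knockout replicate 3, where 12.7% of all genes passed the threshold, 10 of these genes did. CTH, DHFR2, SLC38A1 and SLC38A2 were then higher, and FPGS, GCAT, IMPDH1, PFAS, SLC19A1 and SLC1A5 lower. The groups did not overlap in 9 genes that were higher and 4 that were lower in the knockout, beside 10.7% and 9.8% of all genes tested.

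Among other folate genes (13 of 17 tested, median log2 fold change 0.019), FPGS, which adds the glutamate tail that retains folate in cells, had 58.5, 62.6 and 58.4 CPM in the wildtype libraries and 52.3, 49.9 and 55.9 CPM in the knockout libraries. On the log2 scale FPGS differed by -0.18 (SE 0.0478, edgeR adjusted p = 0.0625), and by -0.077 (SE 0.0404) after the GC correction, with a GC content of 63.84%. DHFR2, the mitochondrial dihydrofolate reductase paralog, had 0.28 (SE 0.0932, edgeR adjusted p = 0.138). The folate receptors FOLR1 and FOLR2 had 0 or 1 counts in any library, while SLC19A1, the reduced folate carrier, was at 80.6 ± 2.58 CPM in wildtype cells (SD, n = 3). SLC19A1 was at 62.9, 66.6 and 83.3 CPM in knockout replicates 1, 2 and 3, so that knockout replicate 3 stood within the wildtype range, and the log2 fold changes of SLC19A1 and FPGS without knockout replicate 3 were -0.31 and -0.23.

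In glycine metabolism (5 of 8 tested, median -0.018), GCAT, which makes and splits aminoketobutyrate, differed by -0.19 on the log2 scale (SE 0.0774, edgeR adjusted p = 0.224). GCSH, the lipoyl carrier of the glycine cleavage system, had 0.31 (SE 0.205, edgeR adjusted p = 0.485) at 1.45 CPM in wildtype, and 12.1% of its exon bases are shared with other genes on its strand, whose fragments were not counted. Among transport genes (10 of 10 tested, median 0.057), SFXN3, a mitochondrial serine carrier, was at 2.61, 2.61 and 2.98 CPM in wildtype and at 4.02, 3.48 and 3.73 CPM in the knockout. The knockout libraries of SFXN3 lay above all wildtype libraries, by 0.45 on the log2 scale (SE 0.137, edgeR adjusted p = 0.105). SLC38A2, a neutral amino acid transporter, had 0.081 (SE 0.027, edgeR adjusted p = 0.135).

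In the methionine cycle and transsulfuration (7 of 10 tested, median 0.020), CTH, which releases cysteine from cystathionine, differed by 0.17 on the log2 scale (SE 0.0633, edgeR adjusted p = 0.189), and AHCYL1, a relative of the adenosylhomocysteine hydrolase, 0.060 (SE 0.0296, edgeR adjusted p = 0.312). Among purine synthesis genes (12 of 13 tested, median 0.0071), IMPDH1, an inosine monophosphate dehydrogenase, had -0.14 (SE 0.0383, edgeR adjusted p = 0.0736), which was -0.043 after the GC correction and -0.19 without knockout replicate 3. PFAS, the enzyme of the fourth step of the pathway, had -0.077 (SE 0.0312, edgeR adjusted p = 0.217).

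ATF4, the transcription factor that drives serine synthesis genes when amino acids are scarce, was at 595, 590 and 573 CPM in wildtype and at 592, 618 and 619 CPM in the knockout. Its groups overlapped, and they differed by 0.057 on the log2 scale (SE 0.027, edgeR adjusted p = 0.298). ATF4 has 56.66% GC, and after the GC correction its log2 fold change was 0.11 with an edgeR adjusted p = 0.00598, where its alternatives spanned 0.00598 to 0.676. ATF3, a stress-induced relative, had 0.27 (SE 0.0915, edgeR adjusted p = 0.144). Of the 8 regulators and kinases tested 7 had a positive log2 fold change, with a median of 0.035, beside 7341 of 14425 over all genes tested.

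**Figure D4:**
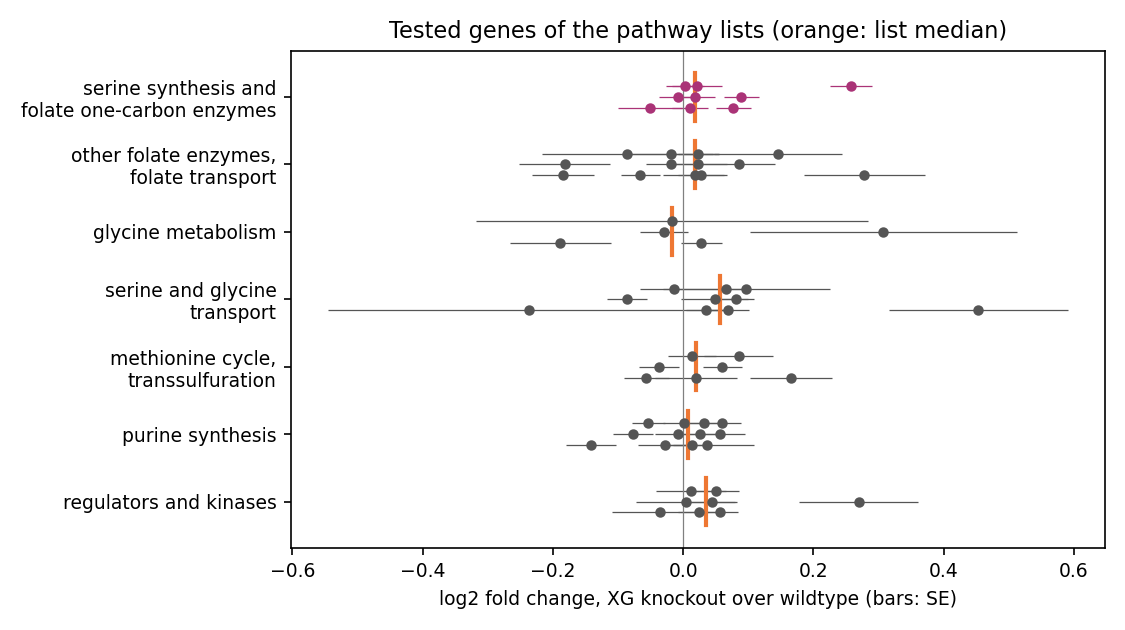
Log2 fold change of XG knockout over wildtype (bars are SE) for each tested gene of the serine and folate enzymes and of 6 related lists, with list medians in orange. ALDH1L2, at 0.26, lies apart from the other 8 enzymes; SFXN3, at 0.45, is the farthest from 0 in the related lists.

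Genes whose log2 CPM followed ALDH1L2 most closely over the 6 libraries were sought among 10003 protein-coding genes with a mean of at least 5 CPM. They were XBP1 (Pearson r = 0.995), CDC42EP3 (0.995), SLC7A2 (0.994), KLHL23 (0.993) and DHX33 (0.991). Among the enzymes, PSAT1 (r = 0.91) came at rank 209 of that order and MTHFD2 (r = 0.85) at rank 496, while SHMT1 had r = -0.77. The genes most like PSAT1, the enzyme with the highest level per length of merged exons, were YPEL5 (r = 0.994), HTRA2 (0.992), OARD1 (0.99), LRRC40 (0.989) and SDHAF4 (0.988), with MTHFD2 at rank 77 (r = 0.964). These values describe 6 libraries that share the difference between the groups and the GC trend.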

How the data were processed

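Stranded mRNA libraries were made from total RNA, per the labels' protocols. Per the submitters' processing notes, reads were aligned with STAR 2.7.6a to GRCh38. The deposited counts are whole fragments per gene; per the file headers, featureCounts (Subread 2.0.1) was run over GENCODE 33 exons with reverse-strand settings and with no option for fragments that map to several places or genes, which were thus left out. The authors' deposited comparison gives log2 fold changes, p-values, a Wald score and a mean signal of scaled counts, from DESeq2 1.38.3 per the submitters' processing notes. Genes were filtered with filterByExpr (minimum count 10, total 15), scaled by trimmed mean of M values and tested with the quasi-likelihood test of edgeR 4.0.16 under R 4.3.3, without covariates and two-sided; p-values were adjusted by Benjamini-Hochberg over 14425 genes. SE came from the fold change and F statistic. CPM used the scaled library sizes. At this depth the median SE of a log2 fold change was 0.0636.

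The members and lists were chosen with earlier results of these data known. Named are all 10 enzymes, XG, called genes of each related list or else its 2 with the smallest p, and the 5 genes most correlated (log2 CPM, prior count 2) with ALDH1L2 and with the enzyme of highest level. SLC19A1, FOLR1, FOLR2, MTHFD2L, MAT2A, SLC38A1, SLC1A5, the pseudogenes and the cell type markers printed fall outside this rule and were chosen after their values were seen. Alternatives were other scalings, DESeq2 1.42.0, limma 3.58.1 voom, other filters, a replicate block, leaving out each library, knockout replicate 3 alone, a threshold of 0.01, other lengths, and a GC correction (lowess, span 0.5, on the longest GENCODE 29 transcript; 99.54% of tested genes had a value). The fitting code was tested on simulated counts.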

Additional observations from a re-analysis of the deposited data

How the results depend on the processing

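Over all genes 196 passed the threshold. The count was 647 with no filter on low counts, 339 with GC correction (157 higher and 182 lower, against 64 and 132), 33 at an adjusted p under 0.01, 125 with knockout replicate 3 alone, and 18 to 1851 when each library was left out, the highest without knockout replicate 3 (the others 18 to 67). Same-numbered libraries did not deviate together (r = -0.046, -0.024 and -0.051 for replicates 1, 2 and 3), and none correlated best with its own number; with the replicate block 37 genes passed, all among the 196. The count of enzymes past the threshold was 1 to 3 when each library was left out, with 3 without knockout replicate 3, and 1 in the other alternatives, the replicate block included. For the 6 related lists the count was 0. With no filter it was 3 (IMPDH1, FPGS and SLC19A1), where 647 of 27252 genes passed. With GC correction it was 1 (ATF4), where 2.35% of all genes passed. The count was 0 to 10 when each library was left out, with 10 without knockout replicate 3, where 12.7% of all genes passed. The replicate block gave 0. MAT2A had a log2 fold change of -0.12 with knockout replicate 3 alone. DESeq2, limma voom and both other scalings changed none of these counts by over 1.5 times. Signs of values near 0 turned. SHMT2 was at 0.0025 with upper quartile scaling, 0.045 with GC correction and 0.041 with knockout replicate 3 alone, and from -0.032 to 0.019 when each library was left out. MTHFD1L was at -0.028 with knockout replicate 3 alone and from -0.011 to 0.018 when each library was left out; PHGDH ranged from -0.014 to 0.047 and PSPH from -0.011 to 0.049 when each library was left out. GCSH was at -0.066 with knockout replicate 3 alone. Of 10 enzymes 4 kept their rank of level with no division by length and 4 with the longest transcript as the length. The ratio of SHMT2 to SHMT1 was 12.6 and 10.2 in these settings, against 19.9, and that of MTHFD1L to MTHFD1 was 0.695 and 1.31, against 1.69.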
